A study of Mus musculus with 9 samples.

Results

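AMP-activated protein kinase (AMPK) was followed in mouse liver through the transcripts of its subunits, its upstream kinases and 2 of its targets. The 10 genes were chosen by symbol, with the condition that a gene had a value above 0 in at least 1 liver, and all 10 met it, out of 23183 gene symbols in the tables and 16889 above 0 in at least 1 liver. They are the catalytic subunits Prkaa1 and Prkaa2, the β subunits Prkab1 and Prkab2, the γ subunits Prkag1 and Prkag2, the upstream kinases Stk11 and Camkk2, and the targets Ulk1 and Lipe. Ulk1 and Lipe are neither subunits nor upstream kinases, since AMPK phosphorylates their products.

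AMPK is a heterotrimer that senses the energy state of the cell: the α subunit is the kinase, the β subunit is the scaffold that binds glycogen, and the γ subunit binds AMP, ADP and ATP. It is switched on when LKB1 (Stk11) or CaMKK2 phosphorylates the activation loop of the α subunit. In hepatocytes, active AMPK phosphorylates acetyl-CoA carboxylase and so holds back the synthesis of fatty acids, and transcript levels do not show phosphorylation.

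Liver RNA of 9 male C57BL/6J mice, labelled postnatal day 100, was sequenced with 1 library per mouse and 3 mice in each of 3 groups. The ND group (mice 6, 7 and 9) received a normal diet with 14% fat for 10 weeks, and the HFD group (mice 1, 2 and 3) a high-fat diet with 60% fat for 10 weeks. The PRF 50 group (mice 3, 9 and 10) received the same high-fat diet for 10 weeks and, during the last 5 weeks, 50 mg/kg of PRF daily by mouth in carboxymethyl cellulose. PRF is the polymethoxyflavone-rich hexane fraction of Citrus sunki (Jinkyool) leaves, a mixture in which tangeretin and nobiletin are the main polymethoxyflavones.

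Values are FPKM (fragments scaled to transcript length and to the size of the library), a per-length unit in which levels of different genes can be compared, and the tests were run on log2(FPKM + 1). HFD mouse 2 stood apart from the other 8 libraries by the small nuclear RNA Rnu6, a gene singled out after its values were seen, at 22.44 on the log2 scale. Its summed FPKM was 6247559, against 527583 to 655459 in the other libraries, and comparisons were therefore also made without it. The depth relative to HFD mouse 1 ranged from 0.963 in PRF 50 mouse 10 to 1.6 in HFD mouse 3, and the absolute depth is unknown. Of 9 hepatocyte markers, 7 reached the minimum level of 1 FPKM in each comparison, with summed values of 15511 to 23237 FPKM led by Apoa1. Albumin (Alb), which defines hepatocytes, was listed at 0 in all 9 livers, so a listed 0 cannot be read as the absence of a transcript. The marker symbol Tf was not among the gene symbols with values, so 8 of the 9 markers entered the sums.

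In the liver, the subunits of highest transcript level were Prkaa2 among the catalytic pair, Prkab1 among the β pair and Prkag1 among the γ subunits. The mean level over the 9 livers was highest for Stk11 at 32.14 FPKM, followed by Prkag1 at 19.76, Ulk1 at 11.4, Prkab1 at 9.904, Prkaa2 at 9.36, Prkag2 at 8.836 and Lipe at 6.927. Lower mean levels were found for Prkaa1 (2.604 FPKM), Camkk2 (1.463 FPKM) and Prkab2 (0.2778 FPKM). Prkab1 lay above Prkaa2 in 7 of 9 livers, Prkaa2 above Prkag2 in 6 of 9, and Prkag2 above Lipe in 7 of 9, so these neighbours in the order did not differ beyond their spread. Each of the other neighbours in the order was separated in 9 of 9 livers. The third γ gene, Prkag3, known from skeletal muscle, had a mean of 0.033 FPKM and was above 0 in 7 of 9 livers.

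**Figure D1:**
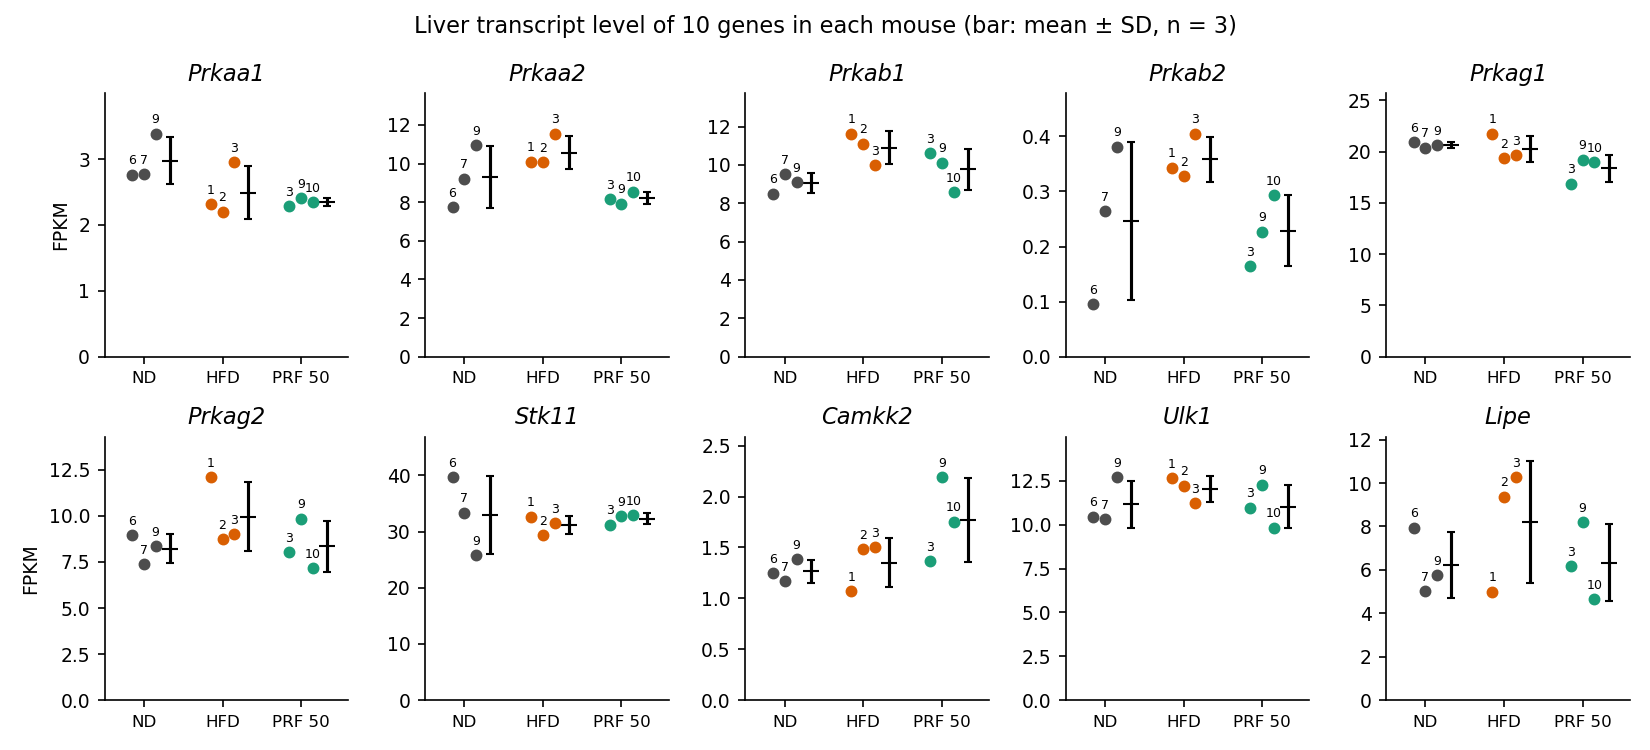
Transcript level in FPKM of each of the 10 genes in each of the 9 livers (points, labelled with the mouse number), by group, with the mean and SD of 3 mice as a black bar; each panel has its own axis from 0. The Prkaa2 values of the PRF 50 mice, 7.92 to 8.55 FPKM, lie below those of the HFD mice, 10.07 to 11.55 FPKM.

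Promoter sequences from RefSeq (GRCm38.p6) were matched by symbol for 10 of 10 genes, with 13 start sites in all, since Prkag2 and Lipe have more than 1. In the 250 bases before the start, GC boxes (GGGCGG on either strand, overlapping matches counted) were present at 9 of the 13 start sites, belonging to 8 of the 10 genes, against 32.7% of 32851 mouse promoters of that length. The motif CCAAT was found at 4 of the 13 sites (33.8% of all promoters), TGACG at 3 (17.8%), CACGTG at 1 (6.02%) and TATAAA at 0 (12.4%), each on either strand. The GC content was above the median of all promoters (52.4%) at 11 of the 13 sites. These matches describe the letters of each window and were not tested as binding sites.

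The windows of the catalytic pair are shown because the balance between Prkaa1 and Prkaa2 is described below. Capitals mark GC boxes, and each sequence is given on the strand of its gene, Prkaa1 from chr15:5143611-5143860 (plus strand) and Prkaa2 from chr4:105109899-105110148 (minus strand).
Prkaa1: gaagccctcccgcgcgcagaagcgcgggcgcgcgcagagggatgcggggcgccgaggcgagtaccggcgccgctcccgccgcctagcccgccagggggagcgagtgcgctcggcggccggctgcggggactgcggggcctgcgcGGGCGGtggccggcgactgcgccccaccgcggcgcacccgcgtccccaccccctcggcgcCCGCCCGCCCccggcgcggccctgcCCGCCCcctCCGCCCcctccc
Prkaa2: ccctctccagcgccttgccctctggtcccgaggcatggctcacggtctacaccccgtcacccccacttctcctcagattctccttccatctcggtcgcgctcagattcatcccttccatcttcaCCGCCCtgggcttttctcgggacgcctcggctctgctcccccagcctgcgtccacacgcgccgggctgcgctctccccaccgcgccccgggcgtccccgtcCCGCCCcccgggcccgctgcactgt
The Prkaa1 window had 5 GC boxes and 85.2% GC, higher than 99.9% of all promoters, and the Prkaa2 window had 2 GC boxes and 70% GC.

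The comparison of the HFD and ND groups asks how the diet alone was accompanied by differences in these transcripts. Of the 10 genes, 9 reached a mean of 1 FPKM and were tested, and Prkab2 did not. None of the 9 had an adjusted p under 0.05 in limma (0 of 9, with 1 of 9 at an unadjusted p under 0.05), where 1.33% of the 9978 tested genes had such an adjusted p and 15.1% such an unadjusted p. The HFD mean was higher for 6 and lower for 3 of the 9 genes (48.3% of all tested genes were higher), with a median log2 fold change of 0.11, against -0.0091 over all tested genes. The HFD and ND values did not overlap for 1 of the 9 genes, Prkab1, where 20.7% of all tested genes had no overlap.

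The comparison of the PRF 50 and HFD groups asks what accompanied the PRF treatment under the same diet. Again 9 of 10 genes were tested and 0 of 9 had an adjusted p under 0.05 in limma, where 3.59% of 10084 tested genes did. An unadjusted p under 0.05 was found for 1 of 9, Prkaa2 (20.2% of all tested genes). The PRF 50 mean was lower for 7 of the 9 genes (53.0% of all tested genes were lower) and higher for Stk11 and Camkk2, with a median log2 fold change of -0.14, against -0.015 over all tested genes. PRF 50 and HFD values did not overlap for 2 of the 9, Prkaa2 and Prkag1 (26.2% of all tested genes).

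Between the PRF 50 and ND groups, 0 of 9 tested genes had an adjusted p under 0.05 in limma and 0 of 9 an unadjusted p under 0.05, where 0.458% and 12.5% of 10051 tested genes did. The PRF 50 mean was lower for 5 and higher for 4 of the 9 (56.6% of all tested genes were lower), with a median log2 fold change of -0.0092 against -0.031 over all tested genes. Groups did not overlap for 2 of 9, Prkaa1 and Prkag1 (19.9% of all tested genes). The 3 comparisons share mice, since each group enters 2 of them, so their values are not independent of each other. A p that misses the threshold does not show that the groups were alike, and with 3 mice per group the intervals were wide.

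**Figure D2:**
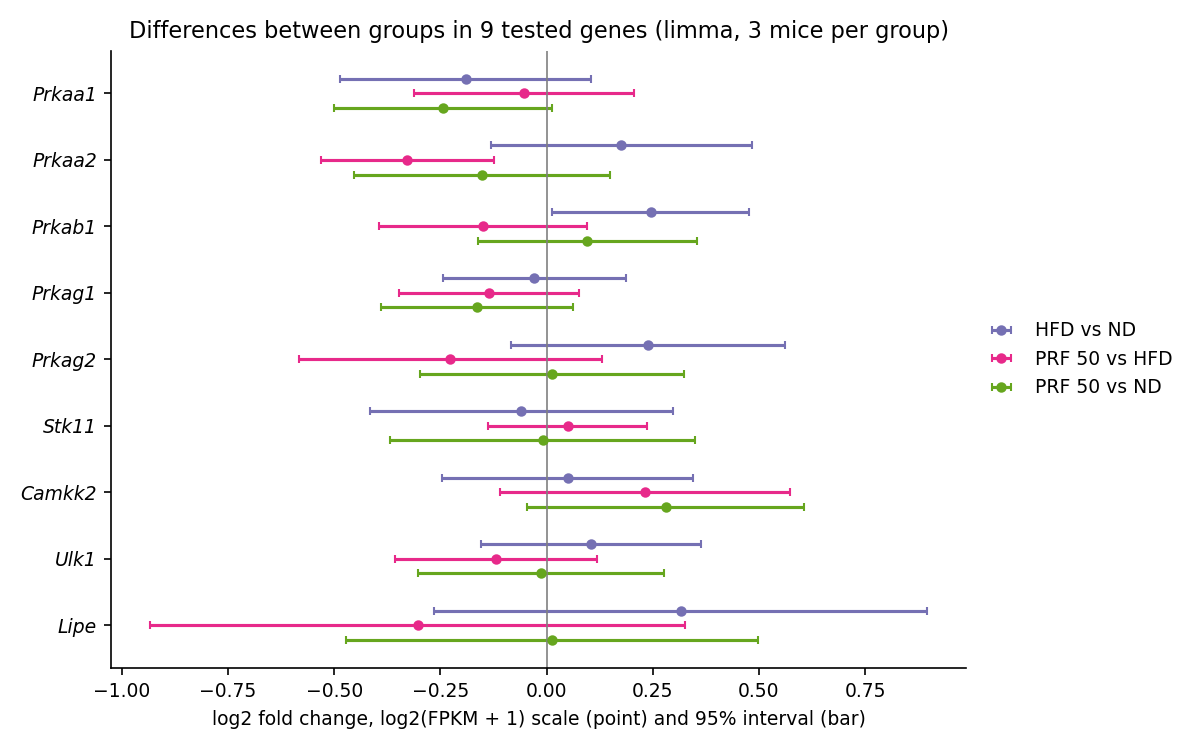
Log2 fold change on the log2(FPKM + 1) scale (points) with its 95% interval from limma (bars) for the 9 tested genes in the 3 comparisons of 3 mice with 3 mice. The Prkaa2 interval for PRF 50 vs. HFD, -0.53 to -0.12, and the Prkab1 interval for HFD vs. ND, 0.013 to 0.48, do not include 0; neither adjusted p was under 0.05.

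Prkaa2 encodes the α2 catalytic subunit (chr4:105029874-105109890, minus strand, GRCm38), whose promoter is printed above. It measured 7.75, 9.22 and 10.95 FPKM in ND mice 6, 7 and 9, 10.1, 10.07 and 11.55 in HFD mice 1, 2 and 3, and 8.14, 7.92 and 8.55 in PRF 50 mice 3, 9 and 10. The PRF 50 livers were all below the HFD livers and close together, while the ND livers spread across both groups, with mouse 6 lowest of all 9. The log2 fold change for PRF 50 vs. HFD was -0.33 (SE 0.087, n = 3 mice per group, adjusted p = 0.0931 in limma), a difference lower in 3 of 3 mice that did not pass the correction. Without HFD mouse 2 it was -0.36 (adjusted p = 0.187), and over all 12 alternatives the adjusted p ranged from 0.0915 to 0.253. For HFD vs. ND the log2 fold change was 0.18 (adjusted p = 0.580) and for PRF 50 vs. ND -0.15 (adjusted p = 0.660), and the groups overlapped in both. Leaving out ND mouse 6 gave 0.063 and -0.26, and leaving out ND mouse 9 gave 0.29 and -0.039.

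Prkaa1 encodes α1, the other catalytic subunit (chr15:5143861-5181899, plus strand). It measured 2.77, 2.77 and 3.39 FPKM in the ND mice, 2.31, 2.2 and 2.95 in the HFD mice, and 2.29, 2.41 and 2.35 in the PRF 50 mice, in the same order of mice. The PRF 50 livers lay below all ND livers and within the range of the HFD livers. ND mouse 9 and HFD mouse 3 had the highest value of their group in both Prkaa1 and Prkaa2. Relative to ND, the PRF 50 log2 fold change was -0.24 (SE 0.11, adjusted p = 0.416 in limma) and for HFD vs. ND -0.19 (adjusted p = 0.537). Without ND mouse 9 the latter was -0.12. PRF 50 and HFD livers differed by -0.05 (adjusted p = 0.834), and the sign turned when HFD mouse 3 was left out (0.04).

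The balance of the pair was compared as the share of Prkaa2 in the summed FPKM of Prkaa1 and Prkaa2. It was 73.7%, 76.9% and 76.4% in ND mice 6, 7 and 9, 81.4%, 82.1% and 79.6% in HFD mice 1, 2 and 3, and 78.1%, 76.7% and 78.4% in PRF 50 mice 3, 9 and 10. All HFD livers had a higher α2 share than any ND or PRF 50 liver, and the ND and PRF 50 livers overlapped. The means were 75.6% ± 1.72 for ND, 81% ± 1.24 for HFD and 77.7% ± 0.928 for PRF 50 (SD, n = 3). HFD exceeded ND by 5.37 percentage points and PRF 50 differed from HFD by -3.29, each with p = 0.1 in a two-sided exact permutation test, the smallest that 3 mice against 3 can give, and p = 0.3 after adjustment over the 9 share tests. PRF 50 exceeded ND by 2.08 points (exact p = 0.2, adjusted p = 0.45), and by 1.1 without ND mouse 6 or 1.28 when 1 was not subtracted. With this test, no share difference of 3 mice against 3 can pass the threshold. The summed α level itself was 10.51 to 14.34 FPKM in ND, 12.27 to 14.5 in HFD and 10.33 to 10.89 in PRF 50 livers.

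**Figure D3:**
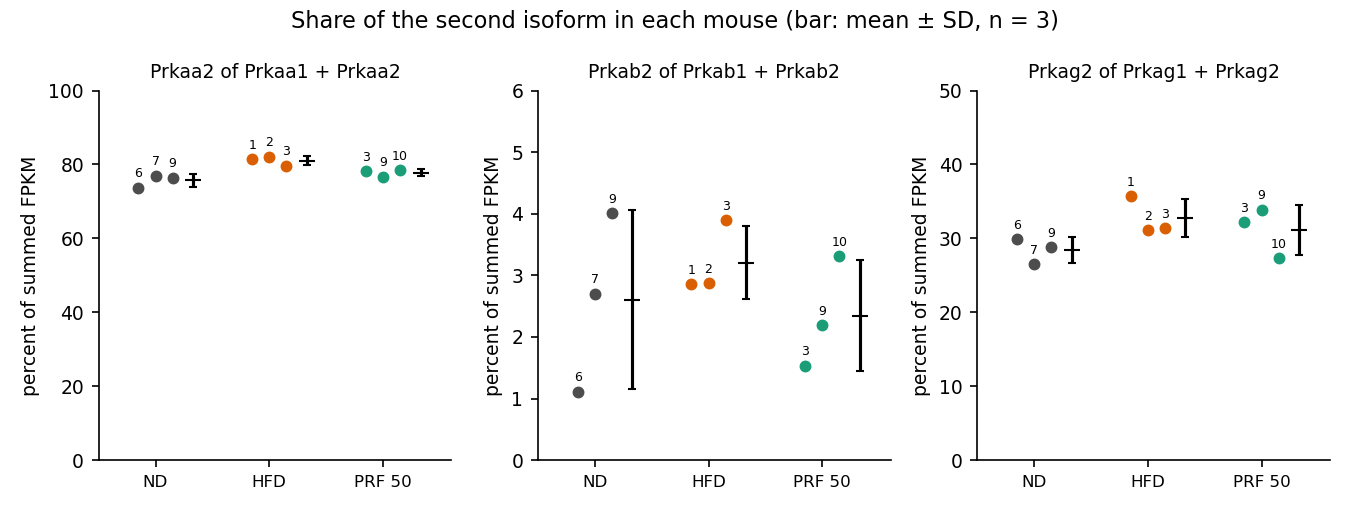
Share in percent of Prkaa2, Prkab2 and Prkag2 in the summed FPKM of each subunit pair in each liver (points, labelled with the mouse number), with the mean and SD of 3 mice as a black bar. The Prkaa2 share lies between 79.6% and 82.1% in the HFD livers, above all ND and PRF 50 livers.

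The genes whose log2 values ran most like Prkaa2 over the 9 livers, among 10048 genes whose mean reached 1 FPKM, were Mmgt1 (Pearson r 0.989), Zadh2 (0.96) and 2410127L17Rik (0.958). For Prkaa1 they were Synrg (0.905), Mtx3 (0.898) and Bop1 (0.887). After subtraction of the group means the r values were 0.99, 0.909 and 0.905 for the Prkaa2 list and 0.797, 0.851 and 0.834 for the Prkaa1 list. These are descriptions of 9 livers, picked as the highest among all genes, and the points share normalization and depth differences.

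Prkab1 encodes β1 (chr5:116013586-116024508, minus strand). It measured 8.5, 9.52 and 9.11 FPKM in the ND mice, 11.63, 11.1 and 9.99 in the HFD mice, and 10.6, 10.12 and 8.56 in the PRF 50 mice. The HFD livers were all above the ND livers, and the PRF 50 livers reached into both ranges, with mouse 10 the lowest of that group. The log2 fold change for HFD vs. ND was 0.25 (SE 0.10, adjusted p = 0.310 in limma, higher in 3 of 3 mice), between 0.20 and 0.30 over 12 alternatives with adjusted p from 0.267 to 0.620. For PRF 50 vs. HFD it was -0.15 (adjusted p = 0.482), and -0.066 without PRF 50 mouse 10.

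Prkab2, which encodes β2 (chr3:97658193-97673812, plus strand), stayed far below Prkab1. It measured 0.0954, 0.264 and 0.381 FPKM in the ND mice, 0.343, 0.328 and 0.405 in the HFD mice, and 0.165, 0.227 and 0.293 in the PRF 50 mice. The PRF 50 livers lay below the HFD livers, and ND mouse 6 was lowest of all. Because the gene missed the minimum level it was tested only in the fit without a minimum, where the log2 fold change for PRF 50 vs. HFD was -0.15 (SE 0.053, adjusted p = 0.253 in limma). The fold change of so low a gene is understated on the log2(FPKM + 1) scale. Its share of the β pair was 2.61% ± 1.45 in ND, 3.21% ± 0.594 in HFD and 2.35% ± 0.9 in PRF 50 (SD, n = 3), with overlap in all 3 comparisons.

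Prkag1 encodes γ1 (chr15:98812797-98831521, minus strand) and was the most abundant γ subunit transcript. It measured 20.94, 20.4 and 20.64 FPKM in the ND mice, 21.76, 19.37 and 19.66 in the HFD mice, and 16.87, 19.22 and 19 in the PRF 50 mice. The PRF 50 livers lay below all ND and all HFD livers, PRF 50 mouse 3 by the widest margin. The log2 fold change was -0.14 for PRF 50 vs. HFD (SE 0.090, adjusted p = 0.459 in limma) and -0.16 for PRF 50 vs. ND (SE 0.098, adjusted p = 0.523). Without PRF 50 mouse 3 these were -0.079 and -0.11, and the first was -0.085 without HFD mouse 1 and -0.086 after quantile normalization.

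Prkag2 encodes γ2 (chr5:24862744-25100642, minus strand), a gene with 3 start sites in the promoter table. It measured 8.94, 7.36 and 8.34 FPKM in the ND mice, 12.1, 8.73 and 9.02 in the HFD mice, and 8.02, 9.85 and 7.15 in the PRF 50 mice. HFD mouse 1 stood above the rest, and all 3 groups overlapped. HFD and ND livers differed by 0.24 on the log2 scale (adjusted p = 0.479 in limma) and PRF 50 and HFD livers by -0.23 (adjusted p = 0.464). Without HFD mouse 1 these were 0.10 and -0.090, and the second was -0.34 without PRF 50 mouse 9 and -0.13 without PRF 50 mouse 10. The Prkag2 share of the Prkag1 and Prkag2 sum was 28.4% ± 1.73 in ND, 32.8% ± 2.59 in HFD and 31.2% ± 3.4 in PRF 50 (SD, n = 3). HFD livers (31.1% to 35.7%) did not overlap ND livers (26.5% to 29.9%), a difference of 4.34 points (exact permutation p = 0.1, adjusted p = 0.3) that became 2.85 without HFD mouse 1. The PRF 50 vs. HFD difference of -1.6 points became -0.108 without HFD mouse 1 and turned to 0.305 without PRF 50 mouse 10. The PRF 50 shares were 32.2%, 33.9% and 27.3% in mice 3, 9 and 10, so the difference is larger without PRF 50 mouse 9. PRF 50 exceeded ND by 2.75 points (exact permutation p = 0.3, adjusted p = 0.45), between 1.38 (without PRF 50 mouse 9) and 4.65 (without PRF 50 mouse 10) when single mice were left out.

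Some of these genes share exon bases with other annotated genes in GENCODE M21. Prkag1 overlaps B130046B21Rik by 950 bases, Prkag2 overlaps Prkag2os1 or Prkag2os2 by at most 795 bases, Stk11 overlaps Cbarp by 232 bases, Lipe overlaps 4732471J01Rik by 918 bases, and Prkab2 overlaps Gm17651 by 9 bases. The libraries were made with a directional kit, but whether strand was used in counting is not given in the sources used here, so reads of such partners cannot be told apart from those of the genes described. Of the partners with a value, 4732471J01Rik lay between 0.0644 and 0.46 FPKM and Prkag2os1 was listed at 0 in all 9 livers. No exon overlap was annotated for Prkaa1, Prkaa2, Prkab1, Camkk2 and Ulk1.

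Stk11, which encodes the upstream kinase LKB1 (chr10:80115803-80130682, plus strand), had the highest level of the 10 genes. It measured 39.7, 33.38 and 25.85 FPKM in ND mice 6, 7 and 9, 32.68, 29.38 and 31.46 in the HFD mice, and 31.2, 32.78 and 32.88 in the PRF 50 mice. The ND livers held both the highest and the lowest value of the 9, and the other groups lay within their range. Differences on the log2 scale were -0.059 (HFD vs. ND), 0.05 (PRF 50 minus HFD) and -0.0092 (PRF 50 minus ND), with adjusted p of 0.891, 0.782 and 0.988 in limma. The HFD vs. ND value was 0.081 without ND mouse 6 and -0.22 without ND mouse 9. The PRF 50 vs. ND sign turned in 4 of 13 alternatives, among them quantile normalization (0.077). The PRF 50 vs. HFD value ranged from 0.0092 to 0.13 over the alternatives, lowest without HFD mouse 2 and highest after quantile normalization. LKB1 works in a complex with the pseudokinase STRAD and the scaffold MO25, and of 4 genes for these partners 3 were tested (Strada was below 1 FPKM) and 0 of 3 passed an adjusted p of 0.05 in limma in any comparison. Between PRF 50 and HFD livers Stradb differed by -0.30 (adjusted p = 0.179) and Cab39 by -0.17 (adjusted p = 0.268). Both were without overlap (2 of 3 partners, against 26.2% of all tested genes). The list medians were 0.15 (HFD vs. ND), -0.17 (PRF 50 minus HFD) and -0.037 (PRF 50 minus ND). In the same order, the counts at an unadjusted p under 0.05 were 0, 1 and 0 of 3, against 15.1%, 20.2% and 12.5% of all tested genes.

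Camkk2, which encodes the calcium-dependent upstream kinase (chr5:122731170-122779409, minus strand), was low in liver. It measured 1.25, 1.17 and 1.39 FPKM in the ND mice, 1.07, 1.48 and 1.5 in the HFD mice, and 1.37, 2.19 and 1.75 in the PRF 50 mice. PRF 50 mice 9 and 10 had the highest values of the 9 livers, and PRF 50 mouse 3 lay among the other groups. Its log2 fold change was 0.23 for PRF 50 vs. HFD (SE 0.15, adjusted p = 0.436 in limma) and 0.28 for PRF 50 vs. ND (SE 0.14, adjusted p = 0.460). Without PRF 50 mouse 9 these were 0.12 and 0.17, and the first was 0.14 without HFD mouse 1 and 0.15 after quantile normalization, while a pseudocount of 0.1 gave 0.36 and 0.43. Its paralog Camkk1 had a mean of 0.1 FPKM over the 9 livers.

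Other regulators of AMPK formed a list of 10 genes, 8 of them tested in each comparison, and 0 of 8 had an adjusted p under 0.05 in limma in any of the 3. For HFD vs. ND the lowest p-values were those of Flcn, which encodes folliculin, and Sesn2, a stress-induced sestrin. Flcn measured 7.13, 7.5 and 7.34 FPKM in the ND mice and 5.09, 5.11 and 5.28 in the HFD mice (log2 fold change -0.43, adjusted p = 0.0742), and Sesn2 differed by 0.54 (adjusted p = 0.118). The Flcn values of ND and HFD livers did not overlap, while the PRF 50 livers, at 7.755, 5.27 and 4.916 FPKM in mice 3, 9 and 10, overlapped both. Ppm1a, which encodes a phosphatase that can act on AMPK, measured 55.73, 51.5 and 51.4 FPKM in the HFD mice and 42.47, 43.2 and 42.9 in the PRF 50 mice. Its log2 fold change for PRF 50 vs. HFD was -0.29 (adjusted p = 0.0925 in limma), without overlap. List medians were 0.12 (HFD vs. ND), -0.10 (PRF 50 minus HFD) and 0.016 (PRF 50 minus ND). In the same order, 3, 2 and 1 of the 8 genes had no overlap, against 20.7%, 26.2% and 19.9% of all tested genes.

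AMPK-related kinases, the relatives of AMPK that LKB1 also activates, were tested for 8 of 12 genes, with 0 of 8 past an adjusted p of 0.05 and 0 of 8 past an unadjusted p of 0.05 in limma in each comparison. Of all tested genes, 15.1% (HFD vs. ND), 20.2% (PRF 50 minus HFD) and 12.5% (PRF 50 minus ND) passed the unadjusted threshold. Median log2 fold changes were 0.026 (HFD vs. ND), -0.032 (PRF 50 minus HFD) and 0.04 (PRF 50 minus ND). The lowest p between PRF 50 and HFD livers were those of Mark4 (0.20, adjusted p = 0.315) and Mark2 (0.09, adjusted p = 0.662). Snrk had the highest level of the list, with a mean of 13.08 FPKM.

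Ulk1 encodes the kinase that starts autophagy (chr5:110784488-110810097, minus strand) and is an AMPK target. It measured 10.45, 10.3 and 12.71 FPKM in the ND mice, 12.65, 12.23 and 11.21 in the HFD mice, and 10.97, 12.29 and 9.83 in the PRF 50 mice. All 3 groups overlapped. Differences on the log2 scale were 0.11 (HFD vs. ND), -0.12 (PRF 50 minus HFD) and -0.013 (PRF 50 minus ND), with adjusted p of 0.707, 0.570 and 0.975 in limma, and the last sign turned under quantile normalization (0.019). Leaving out each mouse, the first ranged from 0.055 (without ND mouse 7) to 0.19 (without ND mouse 9), and the second from -0.19 (without PRF 50 mouse 9) to -0.045 (without PRF 50 mouse 10).

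The autophagy initiation genes around Ulk1 were all tested, 10 of 10, and 0 of 10 had an adjusted p under 0.05 in limma in any comparison. An unadjusted p under 0.05 was found for 1 of 10 for HFD vs. ND and 1 of 10 for PRF 50 vs. ND, in both cases Atg13 (log2 fold change -0.22 and -0.24, adjusted p = 0.293 and 0.375), and for 0 of 10 for PRF 50 vs. HFD. In the same order, 15.1%, 12.5% and 20.2% of all tested genes had such an unadjusted p. Medians were 0.033 (HFD vs. ND), -0.0034 (PRF 50 minus HFD) and 0.050 (PRF 50 minus ND). Of the mTORC1 and TSC genes, which oppose Ulk1 or restrain mTORC1, 9 of 9 were tested and 0 of 9 passed an adjusted p of 0.05 in limma. Their counts at an unadjusted p under 0.05 were 1 (HFD vs. ND, Mlst8), 2 (PRF 50 minus HFD) and 0 (PRF 50 minus ND). Of all tested genes, 15.1%, 20.2% and 12.5% had such a p. The medians of this list were 0.039, -0.054 and -0.0022. Mtor differed by 0.22 between HFD and ND livers (adjusted p = 0.352) and by -0.29 between PRF 50 and HFD livers (adjusted p = 0.175), each without overlap. In these 2 comparisons 1 and 2 of the 9 genes had no overlap, against 20.7% and 26.2% of all tested genes. Tsc1 was higher by 0.22 in PRF 50 than in HFD livers (adjusted p = 0.220).

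Lipe encodes hormone-sensitive lipase (chr7:25379527-25398710, minus strand), an AMPK target best known from adipocytes. It measured 7.93, 5.02 and 5.75 FPKM in the ND mice, 4.99, 9.37 and 10.27 in the HFD mice, and 6.16, 8.2 and 4.66 in the PRF 50 mice. HFD mice 2 and 3 were the highest of the 9 livers, while HFD mouse 1 was close to the lowest, and all 3 groups overlapped. The log2 fold change was 0.32 for HFD vs. ND (SE 0.25, adjusted p = 0.600 in limma), -0.30 between PRF 50 and HFD livers (SE 0.27, adjusted p = 0.586) and 0.012 between PRF 50 and ND livers (adjusted p = 0.988). Without HFD mouse 1 it was 0.60 for HFD vs. ND (adjusted p = 0.189) and -0.59 for PRF 50 vs. HFD (adjusted p = 0.191). Without HFD mouse 3 these were 0.14 and -0.13, and over 12 alternatives each the adjusted p ranged from 0.189 to 0.908 and from 0.191 to 0.871.

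Adipocyte markers were unequal among the same mice. Of 5 markers, Lep and Plin1 were listed at 0 in all 9 livers and Cfd was the most abundant and the only marker tested (HFD vs. ND 1.43, adjusted p = 0.389 in limma, and PRF 50 vs. HFD -2.14, adjusted p = 0.155). The summed level was 0.654, 1.6 and 1.58 FPKM in ND mice 6, 7 and 9, 0.583, 6.56 and 13.48 in HFD mice 1, 2 and 3, and 0.211, 0.609 and 0 in PRF 50 mice 3, 9 and 10. Cfd alone measured 6.285 and 13.38 FPKM in HFD mice 2 and 3, so it made up most of the sum there. HFD mice 2 and 3 were highest both in this sum and in Lipe, and the part of adipocyte transcripts in the Lipe values was not tested.

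**Figure D4:**
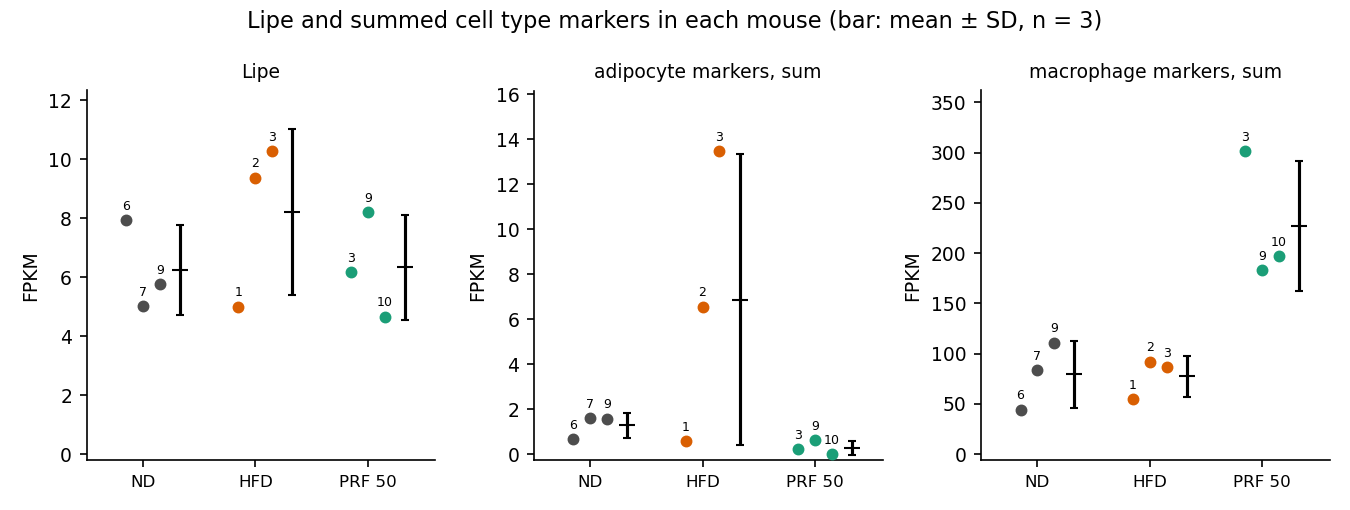
Lipe in FPKM, and the summed FPKM of 5 adipocyte and 8 macrophage markers, in each liver (points, labelled with the mouse number), with the mean and SD of 3 mice as a black bar. HFD mice 2 and 3 are highest in Lipe (9.37 and 10.27 FPKM) and in the adipocyte sum (6.56 and 13.48 FPKM), and the 3 PRF 50 mice are highest in the macrophage sum.

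Macrophage markers were read in the same livers. All 8 were higher in PRF 50 than in HFD livers without overlap, and 7 of 8, all but Marco, had an adjusted p under 0.05 in limma, where 26.2% of all tested genes had no overlap and 3.59% such an adjusted p. The markers were chosen with earlier results of these mice known, so these counts are no independent test. Clec4f, Vsig4, Csf1r, Marco and C1qa are among the genes the authors had listed as differing between these groups. The median log2 fold change of the markers was 1.39, against -0.015 over all tested genes. Their summed level, led by C1qa, was 44.39, 83.24 and 110.8 FPKM in ND mice 6, 7 and 9, 54.39, 91.96 and 86.25 in HFD mice 1, 2 and 3, and 301.6, 183.2 and 197 in PRF 50 mice 3, 9 and 10, and 0 of the 8 markers were at 0 in all livers. In bulk liver RNA, more cells of a type and more RNA per cell cannot be told apart. The part of this difference in the levels of Prkaa2, Prkag1 and the other genes was not tested. The count of 7 became 1 without HFD mouse 2, 0 without HFD mouse 3 or PRF 50 mouse 3, and 3 without PRF 50 mouse 10. It became 4 with all 9 mice in a single model and 2 without a minimum. With a minimum of 10 FPKM it was also 4, because Adgre1, Cd68 and Timd4 lay below that level and were no longer tested. Between HFD and ND livers 0 of 8 had an adjusted p under 0.05 and 0 of 8 an unadjusted p under 0.05, with a median of 0.033.

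Among genes that work with Lipe in the breakdown of stored fat, 7 of 9 were tested, and in the PRF 50 group 7 of 7 were lower than in the HFD group, 5 of them with an adjusted p under 0.05 in limma, where 53.0% of all tested genes were lower and 3.59% had such an adjusted p. This list too was chosen with earlier results of these mice known, and the authors had listed G0s2 and Plin2 as differing between these groups. The median log2 fold change of the list was -0.80, against -0.015 over all tested genes. G0s2, which encodes an inhibitor of adipose triglyceride lipase, measured 204.7, 395.9 and 363.5 FPKM in the HFD mice and 87, 93.7 and 68.5 in the PRF 50 mice, with a log2 fold change of -1.89 (adjusted p = 0.0183). Mgll, the monoglyceride lipase that acts after hormone-sensitive lipase, measured 86.9, 95.2 and 96.7 FPKM in the HFD mice and 42.4, 56.5 and 44.6 in the PRF 50 mice, so that it fell by 0.95 (adjusted p = 0.0170). Both genes were lower in all 3 PRF 50 livers than in any HFD liver. HFD mice 2 and 3, highest in the adipocyte sum, were also the highest livers for G0s2 and Plin2 (511.4 and 439.3 FPKM, against 274.3 in HFD mouse 1), and the part of adipocyte transcripts in these values was not tested. The lipid droplet protein gene Plin5 also fell, by 0.80 (adjusted p = 0.0247), as did the lysosomal lipase gene Lipa, by 0.57 (adjusted p = 0.0442), and Plin2 also passed. Unlike G0s2 and Plin2, Plin5 was highest in HFD mouse 1, at 20.7 FPKM against 15.27 and 17.81 in HFD mice 2 and 3. The count of 5 became 0 without HFD mouse 2, without HFD mouse 3 or without PRF 50 mouse 3, 2 without PRF 50 mouse 10 or without a minimum level, and 3 after quantile normalization, while all 5 genes remained lower in each of these fits. Pnpla2, which encodes adipose triglyceride lipase itself, differed by -0.0096 (adjusted p = 0.980).

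In the comparison of HFD with ND livers, 6 of the 7 lipolysis genes were higher in the HFD group and 0 of 7 had an adjusted p under 0.05 in limma, with 5 of 7 at an unadjusted p under 0.05, where 48.3% of all tested genes were higher and 15.1% had such an unadjusted p. G0s2 differed by 1.31 on the log2 scale (adjusted p = 0.0521) and Mgll by 0.60 (adjusted p = 0.158), with a list median of 0.36. The count of 0 became 2 without HFD mouse 1 (G0s2, adjusted p = 0.00696, and Plin2, adjusted p = 0.0482) and 1 without ND mouse 6 (Mgll, adjusted p = 0.0307). It was also 1, G0s2, with all 9 mice fitted together (adjusted p = 0.0326) or with a minimum of 10 FPKM (adjusted p = 0.0413). Against ND livers, 7 of 7 were lower in PRF 50 livers and 0 of 7 had an adjusted p under 0.05, with 3 of 7 at an unadjusted p under 0.05 (Plin2, G0s2 and Plin5), where 56.6% of all tested genes were lower and 12.5% had such an unadjusted p, and a list median of -0.35.

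AMPK substrates of lipid, glucose and transcriptional control formed a list of 22 genes, of which 19 were tested for PRF 50 vs. HFD and 18 for each of the other comparisons. None had an adjusted p under 0.05 in limma (0 of 19 for PRF 50 vs. HFD, 0 of 18 otherwise). An unadjusted p under 0.05 was found for 4 of 19 between PRF 50 and HFD livers (20.2% of all tested genes). For HFD vs. ND and for PRF 50 vs. ND it was found for 3 of 18 each (15.1% and 12.5% of all tested genes). The acetyl-CoA carboxylase genes Acaca and Acacb varied widely among the ND livers. Acaca measured 10.9, 6.85 and 16.36 FPKM in the ND mice, 9.67, 10.5 and 7.55 in the HFD mice, and 6.5, 7.78 and 5.37 in the PRF 50 mice. Acacb measured 7.29, 6.44 and 14.74 FPKM in the ND mice, 8.04, 10.5 and 5.2 in the HFD mice, and 3.73, 7.25 and 3.11 in the PRF 50 mice. ND mouse 9 was the highest liver for both, and PRF 50 mice 3 and 10 were the lowest for Acacb. Between PRF 50 and HFD livers the log2 fold change was -0.44 for Acaca (adjusted p = 0.170 in limma) and -0.67 for Acacb (adjusted p = 0.282), each with overlap. Over 12 alternatives each, these values ranged from -0.57 to -0.33 and from -0.97 to -0.46, with no adjusted p under 0.05. Compared with ND livers, PRF 50 livers differed by -0.65 for Acaca (adjusted p = 0.387) and -0.87 for Acacb (adjusted p = 0.355), which became -0.37 and -0.53 without ND mouse 9.

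Between PRF 50 and HFD livers, 3 of the 19 tested substrates had no overlap, where 26.2% of all tested genes had none. These 3, Cry1, Gys2 and Crtc2, did not pass the correction. Cry1, a clock repressor whose product AMPK marks for degradation, measured 1.57, 1.42 and 1.34 FPKM in the ND mice, 2.8, 2.07 and 2.69 in the HFD mice, and 1.16, 1.45 and 1.79 in the PRF 50 mice. The HFD livers were above all other livers. The log2 fold change of Cry1 was 0.52 for HFD vs. ND (adjusted p = 0.113 in limma) and -0.52 for PRF 50 vs. HFD (adjusted p = 0.0948), comparisons that share the HFD mice. Between PRF 50 and HFD livers the glycogen synthase gene Gys2 differed by -0.42 (adjusted p = 0.135) and the coactivator gene Crtc2 by 0.24 (adjusted p = 0.156). List medians were 0.056 (HFD vs. ND), -0.045 (PRF 50 minus HFD) and -0.0011 (PRF 50 minus ND).

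**Figure D5:**
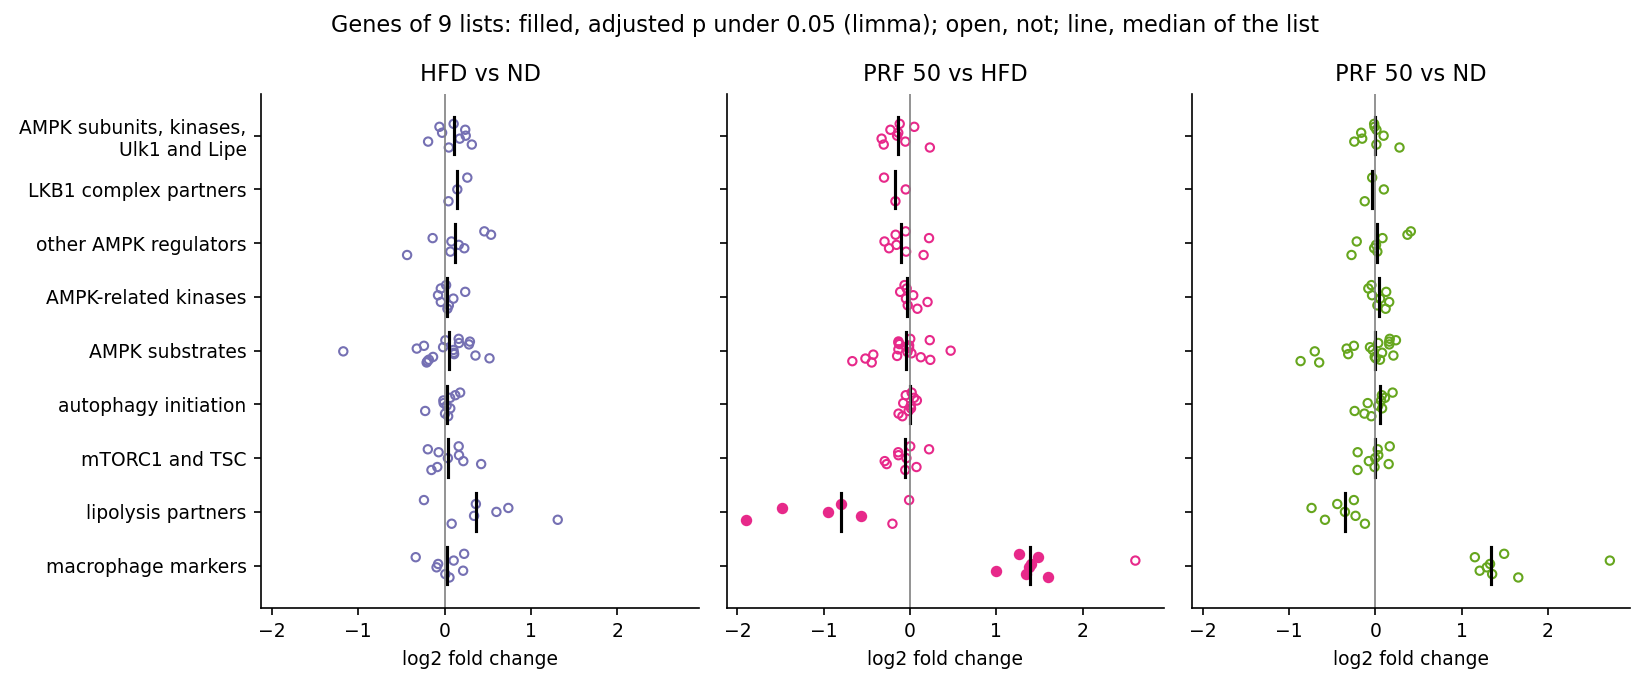
Log2 fold change of each tested gene of 9 lists in the 3 comparisons (filled points, adjusted p under 0.05 in limma; open points, not), with the median of each list as a black line. Filled points are found among the lipolysis partners (5 genes, median -0.80) and macrophage markers (7 genes, median 1.39) for PRF 50 vs. HFD.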

How the data were processed

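Liver RNA of 9 mice was analysed, 3 per group, with groups taken from the sample labels and all 9 tables used. The libraries were poly(A)-selected and made with a directional kit. Reads were trimmed by the authors (FASTX_Trimmer, BBMap), who mapped them with TopHat (to mm10, per the submitters' processing notes), estimated FPKM with Cufflinks and applied a geometric normalization, for which they name EdgeR. The authors deposited 1 log2 value per gene symbol and mouse, read here as log2(FPKM + 1), where the pseudocount of 1 is inferred from the lowest value of 0. The annotation is not given in the sources used here. Without read counts, which were not used here, the counting error of each value is unknown, and relative depth was estimated from the most common ratio of low values between libraries.

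For each comparison, genes averaging 1 FPKM or more in the 6 mice concerned were tested with limma 3.58.1 in R 4.3.3 (lmFit, eBayes with a trend, no covariates), and p-values were adjusted by Benjamini-Hochberg over all tested genes. Every adjusted p of a gene in the text is from limma. Fold changes on this scale understate changes of low genes. For shares within subunit pairs, exact permutation tests (two-sided, scipy) were adjusted over 9 tests. Promoters are from RefSeq, and gene positions from GENCODE M21, both on GRCm38.

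The members, gene lists and marker lists were chosen with earlier results of these data known. Named genes are the 10 members, Prkag3, Acaca and Acacb, genes of the lists with an unadjusted p under 0.05 in any comparison, the 2 genes of each pathway list with the smallest p in each comparison, markers, and the 3 genes with the highest r to Prkaa1 and to Prkaa2. A gene that this rule would name is not reported here. Other genes named, for their level or position, were chosen after their values were seen. Alternatives changed the mice (each left out, or all 9 fitted together), the normalization (quantile, or scaling by median of ratios), the pseudocount (0.1), the minimum (absent, or 10 FPKM), the trend of eBayes (off) and, for shares, the subtraction of 1.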

Additional observations from a re-analysis of the deposited data

How the results depend on the processing

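No paired analysis was made, because the mouse numbers name animals within a group and do not match mice between groups. Over the alternatives, 0 of the 10 genes had an adjusted p under 0.05 in limma in any fit of the 3 comparisons. Prkaa2 for PRF 50 vs. HFD had an unadjusted p under 0.05 in 12 of 12 alternatives. The direction of the members was kept in 319 fits of single genes and turned in 15, none of them past the threshold.

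The number of genes with an adjusted p under 0.05 moved widely among the alternatives. Without a minimum level, where more genes are tested, it was 37 (HFD vs. ND), 126 (PRF 50 minus HFD) and 11 (PRF 50 minus ND), and with all 9 mice fitted together the last was 102. Leaving out each mouse, it ranged from 35 to 140, from 15 to 242 and from 4 to 71, respectively. It was lowest without HFD mouse 3 (35 and 15) and without ND mouse 7 (4), and fewer mice enter these fits. The number of the 10 genes with an unadjusted p under 0.05 was 0 for HFD vs. ND and 0 for PRF 50 vs. HFD with a minimum of 10 FPKM, where Prkab1 or Prkaa2 is no longer tested, 2 for PRF 50 vs. HFD without a minimum and 1 for PRF 50 vs. ND after quantile normalization. Leaving out each mouse, it was 0 to 1 (0 without HFD mouse 2 or ND mouse 6, 7 or 9), 1 to 2 (2 without HFD mouse 1) and 0 to 2 (2 without ND mouse 6, 1 without PRF 50 mouse 3).

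Signs turned for small differences, and the cause was not tested. For PRF 50 vs. ND, quantile normalization gave 0.077 for Stk11 and 0.019 for Ulk1. Leaving out each mouse, the log2 fold changes for HFD vs. ND ranged from -0.078 to 0.0017 for Prkag1, -0.22 to 0.081 for Stk11, -0.50 to 0.074 for Acaca and -0.40 to 0.14 for Acacb. For PRF 50 vs. HFD, Prkaa1 ranged from -0.11 to 0.040. For PRF 50 vs. ND, Prkag2 ranged from -0.10 to 0.11, Stk11 from -0.17 to 0.13, Ulk1 from -0.088 to 0.076 and Lipe from -0.16 to 0.19. The Prkab2 share difference for PRF 50 vs. HFD was 0.0479 percentage points when 1 was not subtracted, because the added constant is larger than the Prkab2 level. Values of low genes such as Prkab2 and Camkk2 are uncertain, since the absolute depth is unknown.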

Other observations

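Markers of further liver cell types were read beside the AMPK genes. Sinusoidal endothelial markers, led by Clec4g, were tested for 6 of 6 genes. Of these, 0 of 6 had an adjusted p under 0.05 in limma in any comparison. Median log2 fold changes were -0.54 (HFD vs. ND), 0.43 (PRF 50 minus HFD) and -0.22 (PRF 50 minus ND). Against 15.1%, 20.2% and 12.5% of all tested genes, 2, 0 and 0 of these markers had an unadjusted p under 0.05. Their summed level was 43.78, 58.75 and 73.87 FPKM in ND mice 6, 7 and 9, 16.91, 40.49 and 56.39 in HFD mice 1, 2 and 3, and 43.05, 43.44 and 69.4 in PRF 50 mice 3, 9 and 10. HFD mouse 1 was the lowest liver, and the groups overlapped.

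Among the stellate cell markers, the collagen genes Col1a1 and Col3a1 had log2 fold changes of 0.77 and 0.87 for HFD vs. ND (adjusted p = 0.0798 and 0.101 in limma) and -0.46 and -0.43 for PRF 50 vs. HFD (adjusted p = 0.162 and 0.180), each without overlap, whereas Dcn, Lrat and Reln were higher in PRF 50 than in HFD livers by 0.14, 0.19 and 0.090 with overlap. None of the markers passed (0 of 5 in limma), with 2 of 5 at an unadjusted p under 0.05 in each, where 15.1% and 20.2% of all tested genes had such a p. In each of these comparisons 2 of 5 had no overlap, against 20.7% and 26.2% of all tested genes. List medians were 0.34 and 0.090, and 0.44 between PRF 50 and ND livers, where 0 of 4 passed either threshold. The summed stellate level, led by Dcn, was 59.18 to 98.74 FPKM in ND, 82.27 to 105.9 in HFD and 76.78 to 127.2 in PRF 50 livers. Hepatocyte markers had 0 of 7 genes past an adjusted p of 0.05 in limma in each comparison. Medians were -0.28 (HFD vs. ND, 2 past an unadjusted p of 0.05), 0.38 (PRF 50 minus HFD, 2 past) and -0.16 (PRF 50 minus ND, 0 past). Of all tested genes, 15.1%, 20.2% and 12.5% passed the unadjusted threshold. Cps1 was at -0.61 for HFD vs. ND (adjusted p = 0.191 in limma). In PRF 50 livers 5 of 7 were higher than in HFD livers, where 4740 of 10084 tested genes were higher. Fgb was higher by 0.72 (adjusted p = 0.155 in limma) and Ttr lower by 0.62 (adjusted p = 0.0865). Both were without overlap (2 of 7, against 26.2% of all tested genes). Cholangiocyte, skeletal muscle and lymphocyte markers summed to at most 3.494, 0.831 and 3.912 FPKM in any liver. For PRF 50 vs. ND, 8 of 8 macrophage markers had an unadjusted p under 0.05 (12.5% of all tested genes) and 0 of 8 an adjusted p under 0.05, with a median of 1.34. This count of 0 became 2 without ND mouse 9, 1 without PRF 50 mouse 9 and 2 with all 9 mice fitted together.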
